A study of Homo sapiens with 4 samples.

Results

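ATAD3A, ATAD3B and ATAD3C are near-identical neighbouring genes on the short-arm end of human chromosome 1. They are 3 of the 58174 genes in each deposited table. They were picked by name as paralogs after a lower level of ATAD3B in the mutant libraries had been seen. Their difference between genotypes is therefore described here without a test. RNA was sequenced from 293FT cells, an established line of human embryonic kidney origin in which the large T antigen of SV40 is expressed. 2 libraries carried the genotype label NIPBLwt and 2 the label NIPBLmut, and no treatment or time is given for either. NIPBL encodes the protein that loads cohesin onto chromosomes, and the series is titled for Cornelia de Lange syndrome and CHOPS syndrome. The kind of mutation, the number of clones and whether replicates came from separate cultures are not stated, so the spread between libraries may be technical.

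ATAD3 proteins are AAA+ ATPases, enzymes that use ATP to remodel other proteins, and they are anchored in the inner mitochondrial membrane. ATAD3A is found in most tissues and is needed for mitochondrial DNA organisation, cristae shape and cholesterol handling. ATAD3B is a primate-specific form known from embryonic stem cells and tumours. It carries an added stretch at its C-terminal end. ATAD3C is the least expressed copy and lacks much of the N-terminal part. Because the copies arose by tandem duplication, many short reads match more than 1 of them.

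In the GENCODE 29 annotation (GRCh38, the same assembly as the hg38 build named in the submitters' processing notes), all 3 genes lie on the plus strand. ATAD3C (ENSG00000215915) spans 1449689 to 1470158 of chromosome 1, ATAD3B (ENSG00000160072) spans 1471769 to 1497848, and ATAD3A (ENSG00000197785) spans 1512151 to 1534687. No other annotated gene overlaps them on either strand. A transcribed pseudogene, AL645728.2, lies between ATAD3B and ATAD3A at 1503250 to 1509452 and has no row in the deposited tables. The coding sequence of the ATAD3A isoform ATAD3A-203 holds 586 codons, that of ATAD3B-201 holds 648 and that of ATAD3C-201 holds 411. Over 1761 aligned coding bases ATAD3A and ATAD3B were 95.7% identical, with 76 mismatches. ATAD3C was 94.2% identical to ATAD3A and 93.7% identical to ATAD3B over 1232 aligned bases.

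Coding stretches of 66 bases show both ends of this likeness. That length was chosen because the deposited effective length was 65 bases below the deposited length for 99.0% of genes in each library, which is how RSEM treats single reads of 66 bases. The first pair below, from exonic coding sequence at chr1:1512288-1512353 and chr1:1471904-1471969, is the first identical one in the coding alignment, where a read could not be assigned by its letters. Sequences are from GENCODE 29 transcripts, plus strand, 5′ to 3′.
ATAD3A: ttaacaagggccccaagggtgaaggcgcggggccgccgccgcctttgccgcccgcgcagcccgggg
ATAD3B: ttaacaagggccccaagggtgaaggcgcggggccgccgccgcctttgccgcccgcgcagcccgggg

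The next set is the most different stretch, in a coding exon at chr1:1527721-1527786 of ATAD3A, chr1:1490283-1490348 of ATAD3B and chr1:1460776-1460841 of ATAD3C. Capitals in the ATAD3A line mark bases that differ from ATAD3B, and capitals in the other lines mark bases that differ from ATAD3A. ATAD3B had 13 mismatches to ATAD3A here and ATAD3C had 7, so a read from this stretch could be placed.
ATAD3A: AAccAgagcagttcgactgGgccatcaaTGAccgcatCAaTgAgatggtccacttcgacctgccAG
ATAD3B: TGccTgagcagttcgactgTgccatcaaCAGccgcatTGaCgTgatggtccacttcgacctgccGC
ATAD3C: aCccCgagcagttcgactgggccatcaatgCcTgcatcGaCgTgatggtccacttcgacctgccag

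Of 747 ungapped coding stretches of this length that lay within 1 exon of both ATAD3A and ATAD3B, 213 were identical, 220 differed at 1 or 2 bases and 314 at 3 or more. Over all isoforms listed in the deposited rows, 23.8% of the 3134 distinct 66-base windows of ATAD3A occurred exactly in another ATAD3 gene. The share was 9.75% of 7999 windows for ATAD3B and 6.99% of 4037 for ATAD3C. The ATAD3B row includes 3 long retained-intron isoforms, and its coding isoform ATAD3B-201 alone shared 29.5% of its windows. With up to 2 mismatches allowed, 56.6% of ATAD3A windows, 21.6% of ATAD3B windows and 13.8% of ATAD3C windows had a partner in the family. No 66-base window of ATAD3A or ATAD3B occurred in a gene outside the family and its pseudogene, and 21 of ATAD3C did. The pseudogene AL645728.2 held 0.734% of the ATAD3A windows, none of the ATAD3B windows and 5.03% of the ATAD3C windows.

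**Figure D1:**
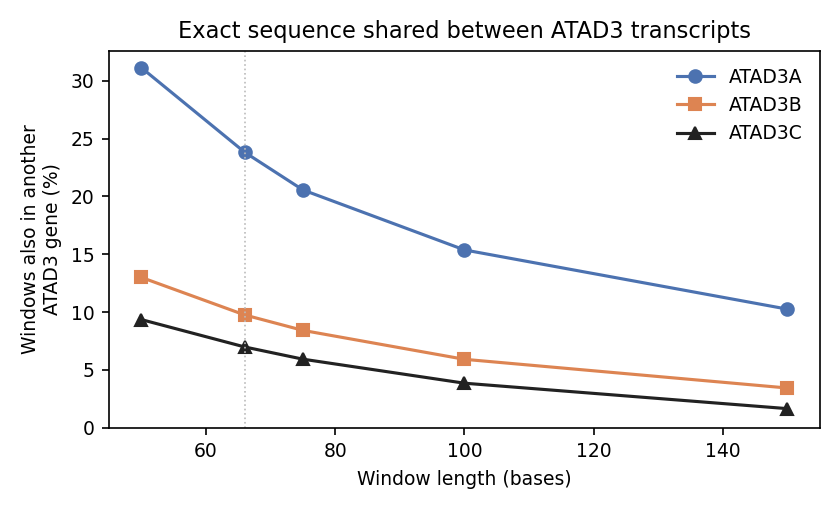
Share of distinct exact sequence windows of each gene's listed isoforms that also occur in another ATAD3 gene (y axis, percent) against window length (x axis, 50 to 150 bases), with 66 bases marked by a dotted line. ATAD3A shared the largest part of its sequence at each of the 5 lengths, 23.8% at 66 bases.

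The deposited counts carry a trace of these shared reads. RSEM divides a read that matches several genes into fractions, so a row that shares reads is rarely a whole number. In wild-type replicate 2 the expected counts were 5060.57 for ATAD3A, 4428.71 for ATAD3B and 20.72 for ATAD3C, none of them whole, and they summed to 9510. The sums were 6214.04 in wild-type replicate 1, 4360 in mutant replicate 1 and 4253.01 in mutant replicate 2. The 4 sums lay within 0.04 of a whole number, while the single rows lay 0.05 to 0.44 away from one. The fractions were thus divided almost wholly among the 3 rows, and the family sum does not depend on how that was done.

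ATAD3B, the stem cell and tumour form, had expected counts of 2616.13 and 4428.71 in wild-type replicates 1 and 2 and of 1333.86 and 1282.64 in mutant replicates 1 and 2. Scaled by the trimmed mean of M values (TMM) to CPM, which corrects for library size, the level was 84.3 and 148 CPM in wild type against 39.5 and 36.9 CPM in the mutant libraries. Both mutant libraries lay below both wild-type libraries. The wild-type libraries were far apart and the mutant libraries were close. The means were 116 ± 45.2 and 38.2 ± 1.84 CPM (SD, n = 2 each), so the mutant mean was 32.8% of the wild-type mean. It was 45.3% of wild-type replicate 1 and 25.7% of replicate 2. The edgeR log2 fold change was -1.61 (SE 0.28), and 0.506% of the 18984 tested genes had a smaller one. Leaving out wild-type replicate 2 gave -1.15 and leaving out replicate 1 gave -1.97.

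ATAD3A, the widely expressed form, was also lower in the mutant libraries. Its expected counts were 3566.1 and 5060.57 in wild type and 2992.58 and 2937.95 in mutant, or 115 and 169 CPM against 88.5 and 84.4 CPM. The groups did not overlap, and wild-type replicate 2 was again the highest library. The means were 142 ± 38.5 and 86.5 ± 2.93 CPM (SD, n = 2 each), and the log2 fold change was -0.72 (SE 0.20). Without wild-type replicate 2 it was -0.41 and without replicate 1 it was -0.99. The ATAD3A difference was thus smaller than that of ATAD3B and had the same sign.

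ATAD3C, the truncated copy, was near the limit of counting. It had 31.81 and 20.72 expected counts in wild type and 33.56 and 32.42 in mutant, or 1.03 and 0.703 CPM against 1.01 and 0.919 CPM. The groups overlapped. Exact 95% Poisson intervals, which cover counting error only, ran from 21.9 to 45.2 counts in wild-type replicate 1 and from 13.0 to 32.1 in replicate 2. The mutant intervals ran from 23.5 to 47.5 counts and from 21.9 to 45.2, so no difference was detectable at this depth. The log2 fold change was 0.15 (SE 0.35), and it was -0.10 without wild-type replicate 2.

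**Figure D2:**
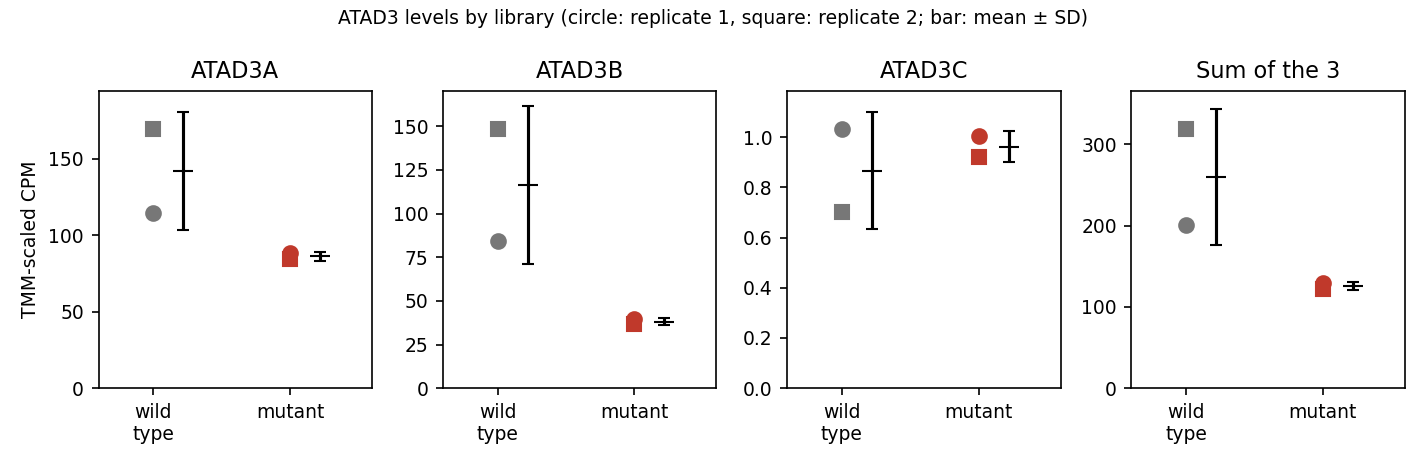
TMM-scaled CPM (y axis, from 0, its own scale in each panel) of ATAD3A, ATAD3B, ATAD3C and their sum in wild-type (grey) and mutant (red) libraries, with circles for replicate 1, squares for replicate 2 and bars for mean ± SD (n = 2). Both mutant libraries sit below both wild-type libraries for ATAD3A, ATAD3B and the sum, and wild-type replicate 2 is the highest library in those 3 panels.

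Both mutant libraries were below both wild-type libraries in 2 of the 3 paralogs, and in 30.8% of all tested genes. The reverse order was found in none of the 3 and in 32.3% of all tested genes. With an edgeR adjusted p under 0.05 as the threshold, 2.1% of tested genes were lower in mutant, with ATAD3B as 1 of the 3 paralogs among them. ATAD3B was not called by limma-trend on TPM, and ATAD3A was called as well by DESeq2 and with a replicate block. Since ATAD3B was chosen from this comparison, nothing is read from these counts. In bulk RNA, fewer cells with a transcript and less of it per cell cannot be told apart.

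The family sum was lower in the mutant libraries as well. It stood at 200 and 318 CPM in the wild-type libraries and at 129 and 122 CPM in the mutant libraries. The groups did not overlap. The means were 259 ± 83.4 and 126 ± 4.82 CPM (SD, n = 2 each), so the mutant mean was 48.4% of the wild-type mean. With the 3 rows replaced by their sum, the log2 fold change was -1.05 (SE 0.23), and leaving out wild-type replicate 2 or replicate 1 gave -0.68 or -1.36. The ATAD3B mean differed by -78.1 CPM, mutant less wild type. ATAD3A and ATAD3C together stood at 143 ± 38.3 CPM in the wild-type libraries and 87.4 ± 2.99 CPM in the mutant libraries (SD, n = 2 each). Their difference had the same sign as that of ATAD3B. Counted as a gain, it was -71.2% of the ATAD3B loss, and it lay between -75.1% and -60.4% in the alternative scalings, on TPM and with each library left out.

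Within the family, the part assigned to ATAD3B was smaller in the mutant libraries. ATAD3B took 42.1% of the family's expected counts in wild-type replicate 1 (95% Wilson interval 40.9% to 43.3%) and 46.6% in replicate 2 (45.6% to 47.6%). It took 30.6% in mutant replicate 1 (29.2% to 32.0%) and 30.2% in mutant replicate 2 (28.8% to 31.6%). The wild-type and mutant libraries were apart, and the mutant libraries lay within each other's intervals. The means were 44.3% ± 3.16 and 30.4% ± 0.307 (SD, n = 2 each), a difference of -14.0 percentage points. Counting intervals do not cover errors in dividing shared reads. Unlike the sum, this share depends on that division. The log2 ratio of ATAD3B to ATAD3A counts was -0.45 and -0.19 in wild type and -1.17 and -1.20 in mutant.

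**Figure D3:**
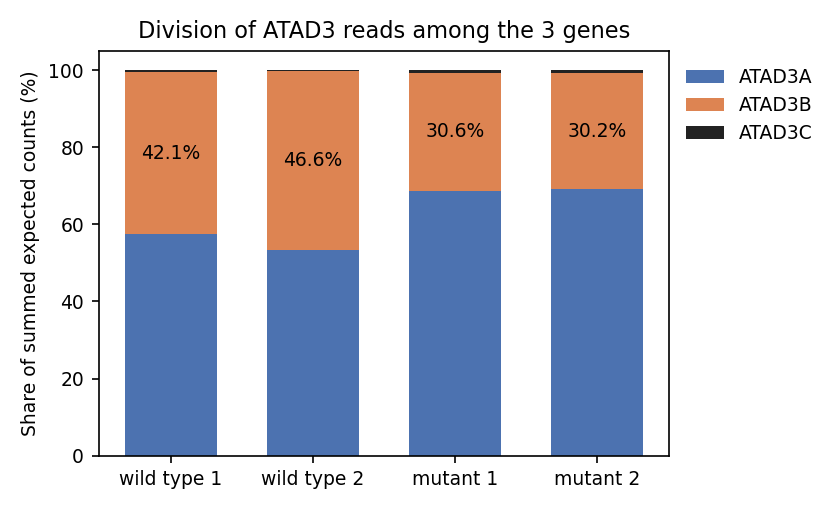
Share of the family's summed expected counts (y axis, percent) assigned to ATAD3A (blue), ATAD3B (orange, value printed) and ATAD3C (black) in each of the 4 libraries (x axis). ATAD3B takes 42.1% and 46.6% in the wild-type libraries and 30.6% and 30.2% in the mutant libraries.

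Levels of different genes can be compared only per length, for which TPM, an abundance corrected for transcript length, was used. The order ATAD3A, ATAD3B, ATAD3C held in each of the 4 libraries. ATAD3A had 45.6 and 68.6 TPM in wild type and 39.3 and 37.6 TPM in mutant. ATAD3B had 28.4 and 55.8 TPM in wild type and 15.4 TPM in both mutant libraries. ATAD3C stood between 0.81 and 1.62 TPM. The wild-type means were 57.1 ± 16.3 TPM for ATAD3A and 42.1 ± 19.4 TPM for ATAD3B. The mutant means were 38.4 ± 1.23 and 15.4 ± 0.0141 TPM (SD, n = 2 each). Both genes were measured in the same libraries and were highest in wild-type replicate 2. These SDs therefore do not measure the spread of the difference between the genes. On TPM the ATAD3B share of the family was 37.7% and 44.6% in wild type and 27.4% and 28.2% in mutant.

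The deposited effective length of a gene is a mean over its isoforms, weighted by their estimated abundance. For ATAD3A it was 1960.77 and 1835.62 bases in wild type and 1957.53 and 1955.76 bases in mutant. For ATAD3B it was 2310.85 and 1972.57 bases in wild type and 2223.55 and 2081.55 bases in mutant. The ATAD3B range of the mutant libraries lay inside that of the wild-type libraries, and wild-type replicate 2 had the lowest value of both genes. With effective lengths as offsets in the edgeR fit, the log2 fold change was -1.64 for ATAD3B, -0.76 for ATAD3A and -1.05 for the sum.

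These lengths bound the isoform mix. ATAD3B has 1 short listed isoform, the 414-base noncoding ATAD3B-202, which shares 43.8% of its 66-base windows with the other paralogs. The estimated mean length alone put ATAD3B-202 at 3.55% to 49.7% of ATAD3B transcripts in wild-type replicate 1 and 20.2% to 58.4% in replicate 2. The bounds were 7.84% to 51.9% in mutant replicate 1 and 14.8% to 55.6% in mutant replicate 2. The bounds were thus wide and did not separate the genotypes. For ATAD3C, the full-length 3859-base ATAD3C-201, the one with the 411 codons, could make up only 4.43% to 5.90% of transcripts in the wild-type libraries. In the mutant libraries its bounds ran from 1.24% to 3.81%. Most ATAD3C transcripts were therefore estimated as 2 isoforms of 525 and 506 bases, and these bounds rest on at most 33.56 counts in a library.

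Genes next to the cluster were then compared, to see whether the lower ATAD3 levels stood alone on this stretch of chromosome 1. The list was the 10 nearest tested protein-coding genes on each side. None of these 20 was called by edgeR, where 5.81% of all tested genes were, and 7 (35%) had an unadjusted p under 0.05, beside 29.8% of all tested genes. DESeq2 called 2 of them lower, MRPL20 and SSU72, where it called 12.2% of all genes, and limma-voom (6.62% of genes called) and limma-trend on TPM (4.94%) called none. The log2 fold change was below 0 in 17 of the 20, beside 50.4% of all tested genes, with a median of -0.28, against -0.01 over all tested genes. With total counts the medians were -0.11 and 0.17, and on TPM they were -0.04 and 0.12, so the neighbours' median less that of all genes was -0.28 with TMM, -0.28 with total counts and -0.17 for TPM values. Leaving out wild-type replicate 2 gave a median of -0.34, and leaving out replicate 1 gave -0.24. Both mutant libraries were below both wild-type libraries in 11 of the 20, beside 30.8% of all tested genes. None of the 20 had a smaller log2 fold change than ATAD3B, and 1, MRPL20, had a smaller one than ATAD3A. Of all tested genes, 0.506% had a smaller one than ATAD3B and 6.54% a smaller one than ATAD3A. Since ATAD3B was chosen for its low level in this comparison, its place below the neighbours was nearly fixed beforehand.

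MRPL20, a protein of the large mitochondrial ribosomal subunit, had 84.5 and 132 CPM in the wild-type libraries and 58.4 and 57.3 CPM in the mutant libraries (log2 fold change -0.91, SE 0.22, edgeR adjusted p = 0.0729). SSU72, a phosphatase that acts on the tail of RNA polymerase II, lies 6.99 kb beyond ATAD3A. It had 114 and 150 CPM in the wild-type libraries and 80.2 and 82.4 CPM in the mutant libraries (log2 fold change -0.70, SE 0.16, edgeR adjusted p = 0.0652). MIB2, a ubiquitin ligase of the Notch pathway, stood at 43.8 and 49.0 CPM in wild type against 31.4 and 33.5 CPM in mutant (-0.52, SE 0.12, edgeR adjusted p = 0.0660). Like ATAD3A and ATAD3B, MRPL20 and SSU72 had their highest value in wild-type replicate 2. Wild-type replicate 2 was above replicate 1 in 9 of the 20 neighbours, beside 48.2% of all tested genes. The median of replicate 2 less replicate 1 was -0.11 on the log2 scale over the 20, against -0.02 over all tested genes. VWA1, an extracellular matrix protein and the nearest gene on the ATAD3C side, had 18.4 and 16.2 CPM in the wild-type libraries and 14.3 and 13.9 CPM in the mutant libraries. Log2 fold changes above 0 were seen in FNDC10 (0.32, SE 0.29), MXRA8 (0.24, SE 0.25) and NADK (0.19, SE 0.12), the last an enzyme that makes NADP.

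**Figure D4:**
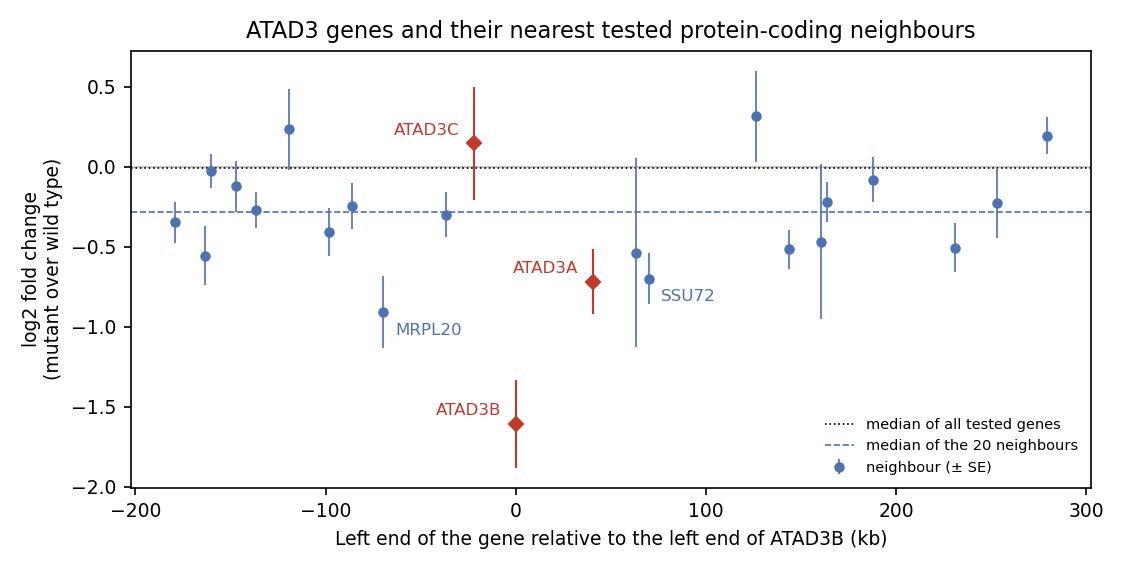
Log2 fold change, mutant over wild type (y axis, ± SE), of the ATAD3 genes (red diamonds) and the 20 nearest tested protein-coding genes (blue circles) against the left end of each gene relative to that of ATAD3B (x axis, kb). 17 of the 20 neighbours lie below 0, around a median of -0.28 (dashed line). ATAD3B, which was chosen for its low level, lies below all of them.

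Genes that act where ATAD3 proteins sit were described next. Of 18 inner membrane and cristae genes, edgeR called 3 lower and none higher, beside 2.1% and 3.71% of all tested genes. ATP5ME, subunit e of ATP synthase, fell from 132 and 143 CPM in wild type to 75.3 and 75.2 CPM in the mutant libraries (log2 fold change -0.87, SE 0.11, edgeR adjusted p = 0.0294). MICOS10, a small subunit of the cristae junction complex, fell from 49.1 and 57.5 to 32.2 and 30.4 CPM (-0.77, SE 0.13, edgeR adjusted p = 0.0399). OMA1, the protease that cleaves OPA1, fell from 43.0 and 50.1 to 29.3 and 28.1 CPM (-0.70, SE 0.13, edgeR adjusted p = 0.0444). Both mutant libraries were below both wild-type libraries in 10 of the 18, these 3 among them, beside 30.8% of all tested genes. The reverse order was found in 3 of the 18, beside 32.3% of all tested genes. IMMT, the large cristae junction subunit, had 137 and 137 CPM in the wild-type libraries and 177 and 175 CPM in the mutant libraries (0.36, edgeR adjusted p = 0.101). The fusion GTPase OPA1 had 178 and 181 CPM against 235 and 220 CPM (0.34, edgeR adjusted p = 0.115). The list median was -0.24, and -0.07 on TPM, against -0.01 and 0.12 over all tested genes. Without mutant replicate 1 the list median was -0.27, and without mutant replicate 2 it was -0.21. All tested genes had a median of -0.01 in both of these fits.

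Of 28 other AAA+ ATPases, edgeR called 2 lower and none higher, beside 2.1% and 3.71% of all tested genes. ATAD2, a chromatin ATPase with a bromodomain, fell from 147 and 145 to 79.5 and 84.5 CPM (log2 fold change -0.83, SE 0.11, edgeR adjusted p = 0.0295). BCS1L, the inner membrane ATPase that completes respiratory complex III, fell from 45.0 and 57.5 to 23.3 and 23.8 CPM (-1.12, SE 0.15, edgeR adjusted p = 0.0305). ATAD2 was not called by limma-trend on TPM, which called 4.94% of all genes. ATAD2B, a relative of ATAD2, had 42.6 and 47.2 CPM in the wild-type libraries and 56.5 and 56.4 CPM in the mutant libraries (0.33, edgeR adjusted p = 0.133). ATAD5, which unloads the replication clamp from DNA, stood at 112 and 106 CPM in wild type against 124 and 140 CPM in mutant (0.27, SE 0.12, edgeR adjusted p = 0.198). The list median was -0.13, 0.12 on TPM and 0.05 without wild-type replicate 2. Over all tested genes these medians were -0.01, 0.12 and 0.0045.

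Of 18 genes of the mitochondrial nucleoid, the protein-DNA body that packs mitochondrial DNA and to which ATAD3 proteins bind, edgeR called none. It called 5.81% of all tested genes. The unadjusted p was under 0.05 for 4 of them (22.2%), beside 29.8% of all tested genes. DESeq2 called SSBP1 and MTERF1 lower, where it called 12.2% of all genes. Limma-voom (6.62% of genes called) and limma-trend on TPM (4.94%) called none. SSBP1, which coats single-stranded mitochondrial DNA, had 212 and 307 CPM in the wild-type libraries and 170 and 149 CPM in the mutant libraries (-0.70, SE 0.20, edgeR adjusted p = 0.0965). MTERF1, a mitochondrial transcription terminator, had 15.6 and 23.1 CPM against 10.6 and 11.2 CPM (-0.82, SE 0.22, edgeR adjusted p = 0.0826). LONP1, the main protease of the mitochondrial matrix, stood at 233 and 162 CPM in wild type against 231 and 244 CPM in mutant (0.26, SE 0.19, edgeR adjusted p = 0.404). PRIMPOL, a primase that restarts stalled replication, stood at 37.5 and 22.7 CPM in wild type against 38.3 and 39.0 CPM in mutant (0.36, SE 0.24, edgeR adjusted p = 0.367). The list median was -0.18, but -0.0035 without wild-type replicate 2. Wild-type replicate 2 less replicate 1 had a median of 0.35 on the log2 scale over these 18 genes, against -0.02 over all tested genes. The same difference between wild-type replicates was 0.56 for ATAD3A and 0.81 for ATAD3B. Its part in the results was not tested.

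The 13 protein genes of mitochondrial DNA itself gave no edgeR call, where 5.81% of all tested genes were called. In this list 4 genes (30.8%) had an unadjusted p under 0.05, beside 29.8% of all tested genes. DESeq2 called 1, MT-ATP6, where it called 12.2% of all genes, and limma-voom and limma-trend called none. MT-ATP6 had 47.1 and 52.4 CPM in the wild-type libraries and 31.6 and 35.7 CPM in the mutant libraries (-0.56, SE 0.13, edgeR adjusted p = 0.0630). MT-CYB, the cytochrome b of complex III, had 35.7 and 37.6 CPM against 25.8 and 26.5 CPM (-0.49, SE 0.11, edgeR adjusted p = 0.0642). MT-CO2, a subunit of cytochrome c oxidase, had a log2 fold change of 0.23 (SE 0.15). MT-CO1, another subunit of that oxidase, stood at 532 and 360 CPM in wild type against 534 and 569 CPM in mutant (0.31, SE 0.20, edgeR adjusted p = 0.359). The list median was -0.33, and -0.13 without wild-type replicate 2.

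Among 8 genes whose proteins are known to bind ATAD3A, edgeR, DESeq2 and limma-voom called none. They called 5.81%, 12.2% and 6.62% of all genes. An unadjusted edgeR p under 0.05 was found for 3 of the 8 (37.5%), beside 29.8% of all tested genes. Limma-trend on TPM called EIF2AK3 and S100B higher, where it called 4.94% of all genes. EIF2AK3, the kinase PERK that slows translation in endoplasmic reticulum stress, had 36.2 and 33.6 CPM in the wild-type libraries and 48.5 and 50.1 CPM in the mutant libraries (0.50, SE 0.11, edgeR adjusted p = 0.0615). WASF3, an actin regulator, had 41.6 and 45.1 CPM against 31.8 and 33.0 CPM (-0.42, SE 0.11, edgeR adjusted p = 0.084). TIMM23, the channel of the inner membrane protein import complex, stood at 77.7 and 123 CPM in wild type against 73.0 and 69.7 CPM in mutant (-0.49, SE 0.23, edgeR adjusted p = 0.216). The calcium-binding S100B was under 1 CPM in all 4 libraries. The list median was -0.17, and 0.02 without wild-type replicate 2.

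The genes whose values over the 4 libraries lay nearest to ATAD3B were taken from 14456 tested protein-coding genes, by Euclidean distance between log2 CPM centred on each gene's mean. With 4 libraries this is a description, and it uses the differences for which ATAD3B was chosen. They were HSPE1 (distance 0.11), the mitochondrial chaperonin cofactor, RPP25 (0.18), a subunit of RNase P and MRP, SCO2 (0.21), a copper chaperone of cytochrome c oxidase, NAT8L (0.22), which makes N-acetylaspartate, and PRPS1L1 (0.22). HSPE1 had 104 and 175 CPM in the wild-type libraries and 50.1 and 42.5 CPM in the mutant libraries. PRPS1L1 was under 1 CPM throughout. ATAD3A was at a distance of 0.88 from ATAD3B, and 435 genes outside the family were nearer. Nearest to ATAD3A were WDR3 (0.03), a ribosome biogenesis factor, DBF4 (0.03), the activator of the replication kinase CDC7, PSMD14 (0.04), a proteasome deubiquitinase, HNRNPH1 (0.04), a splicing regulator, and FAM133B (0.04). All 10 genes had their highest value in wild-type replicate 2. That follows from how they were picked, since ATAD3A and ATAD3B both peak there.

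**Figure D5:**
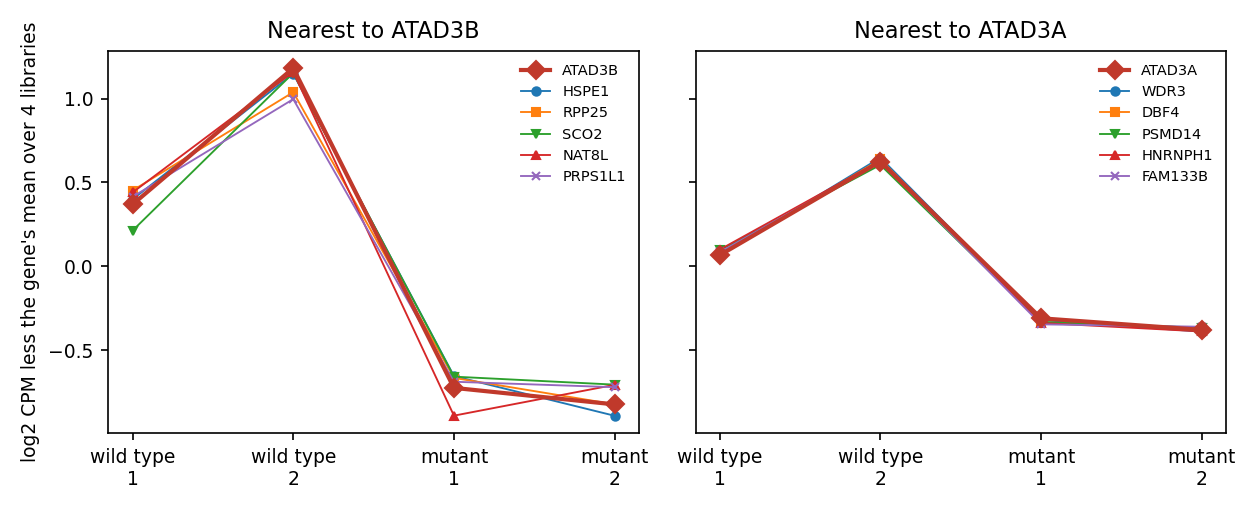
Log2 CPM less each gene's mean over the 4 libraries (y axis) by library (x axis; lines only join the points of 1 gene), for ATAD3B with its 5 nearest genes (left) and ATAD3A with its 5 nearest genes (right). Each gene peaks in wild-type replicate 2 and is lowest in the mutant libraries, which follows from how the genes were picked.

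The 4 libraries held between 31545743 and 33161120 expected counts, so 1 count was worth 0.0287 to 0.0335 CPM. NIPBL itself had 41.8 and 44.4 CPM in the wild-type libraries and 61.0 and 62.0 CPM in the mutant libraries, which does not check the labels, because the mutation is not described. Of 16 markers of the 293FT line, 15 passed the filter on low counts, with VIM between 285 and 461 CPM and NEFH at most 0.325 CPM. edgeR called 4 of those 15 higher in mutant (KRT8, SOX2, EPCAM and DCX) and 3 lower (NEFM, LIN28B and VIM). Of all tested genes it called 3.71% higher and 2.1% lower. DCX was at most 0.833 CPM in any library. The neurofilament gene NEFM fell from 72.8 and 63.9 CPM to 1.33 and 0.833 CPM (log2 fold change -5.98, SE 0.24, edgeR adjusted p = 0.0086). The 7 fibroblast markers summed to 31.0 and 17.9 CPM in the wild-type libraries and 29.5 and 30.8 CPM in the mutant libraries, and COL1A2 was at 0 in all libraries. Of the 5 fibroblast markers that passed the filter, edgeR called 2 higher and 1 lower, beside 3.71% and 2.1% of all tested genes. The hematopoietic, hepatocyte and endothelial markers summed to at most 4.34, 0.747 and 2.07 CPM in any library, with CD3E and SERPINA1 at 0 in all. The part of these differences in the ATAD3 values was not tested.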

How the data were processed

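Per the labels' protocols, ribosomal RNA was removed from total RNA of 293FT cells before strand-marking library preparation. The tools named in the submitters' processing notes are STAR (2.7.3a) together with RSEM (1.3.1), with hg38 as build. The annotation release and strand setting used go unnamed in these notes and labels. The authors deposited 1 table per library. Per the file headers, each holds expected counts (RSEM's estimated reads per gene), TPM, FPKM (not used) and lengths. Of 58174 rows, 57836 matched GENCODE 29 without version.

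Expected counts were rounded and entered edgeR's robust quasi-likelihood test (4.0.16, R 4.3.3) after filterByExpr by group and TMM scaling. Genes were called at a Benjamini-Hochberg adjusted p under 0.05 among 18984 tested. The test was also run on simulated data that had the same spread in both groups of a gene. That run could not check calls under unequal spread between groups, as seen here. The wild-type libraries differed by a chi-square per gene of 42.1 and the mutant libraries by 3.71. Each library was counted as a sample, though whether replicates came from separate cultures is not stated. The edgeR fit took the same spread for both groups of a gene. With 2 against 2 libraries, an exact two-sided test could not go below p = 0.333. Shared sequence was counted as exact windows of GENCODE 29 transcripts. Coding sequences were aligned globally.

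The members and lists were chosen with earlier results of these data known. Named genes were the members, up to 4 genes per list by p (at most 2 per direction), called genes of short lists, the 5 nearest patterns and NIPBL. MRPL20, VWA1, MXRA8, SAMD11, AGRN and the markers were named after their values were seen. Alternatives were other scalings and filters, DESeq2 1.42.0, limma 3.58.1 (voom; trend on log2(TPM + 1)), effective length offsets, a replicate block and leaving out each library. The 66-base windows, the mismatch count and the neighbours' medians by scaling were added after the data were seen.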

Additional observations from a re-analysis of the deposited data

How the results depend on the processing

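ATAD3B, ATAD3A and the family sum were lower in mutant under every alternative run. With each library left out in turn, the log2 fold change ran from -1.97 to -1.15 for ATAD3B, from -0.99 to -0.41 for ATAD3A, from -1.36 to -0.68 for the sum and from -0.10 to 0.44 for ATAD3C. ATAD3C changed sign without wild-type replicate 2 (-0.10) and was removed by the stricter filter. The ATAD3B share difference ran from -16.2 to -11.7 percentage points, and the change of ATAD3A and ATAD3C ran from -75.1% to -61.8% of the ATAD3B loss, or -60.4% with total counts. Total counts moved the median of all genes to 0.17 and TPM to 0.12, where the sum had -0.86 and -0.80.

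The 1103 called genes became 1918 of 33495 with no filter, 657 of 12296 with the stricter filter and 2346 (12.2%) with DESeq2. They were 1386 with total counts, 937 on TPM and 1066 with length offsets, each of 18984 tested. Higher genes made up 63.8% of calls, 80.2% with total counts, 87.3% on TPM and 52.4% with DESeq2. Called neighbours were 2 of 20 with no filter, 2 of 20 with DESeq2 and, in the main fit, 2 of the 47 genes of the wider stretch below, all lower. Called nucleoid genes were 2 with DESeq2, and mtDNA genes 1 with no filter and 1 with DESeq2. Total counts called 5 inner membrane genes, 3 lower and 2 higher (IMMT and OPA1), and 1 partner higher (EIF2AK3). On TPM, 1 inner membrane gene and 1 AAA+ gene were called lower and 2 partners higher. With length offsets 1 partner was called higher.

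Leaving out each library gave 399 to 11840 called genes, 0 to 13 neighbours, 0 to 12 nucleoid, 0 to 14 inner membrane, 1 to 18 AAA+, 0 to 8 partner and 0 to 10 mtDNA genes. The high counts come from fits without a wild-type library, where the spread is that of the close mutant pair alone. The low ones come from fits without a mutant library, where it is that of the wide wild-type pair. The lone library is assumed to vary like the other group.

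Same-numbered libraries share only a number, with a correlation of -0.06 between their deviations. The replicate block gave 2279 called genes of 18984 tested, 2 neighbours, 2 nucleoid genes and 1 partner, and -1.55 for ATAD3B. A sum with further overlapping rows was not run, since no other row overlaps the cluster.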

Other observations

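A wider stretch around the ATAD3 cluster was also described. Among 47 tested protein-coding genes, the 25 nearest on the right side and the 22 that lie between the cluster and the chromosome's left end, 39 had a log2 fold change below 0, beside 50.4% of all tested genes, with a median of -0.30, against -0.01. With total counts 30 of the 47 were below 0 (all tested genes: 35.5%) with a median of -0.13, and on TPM 30 were (33.5%) with a median of -0.04. edgeR called 2 of these 47 lower, SAMD11 and AGRN, and none higher, where it called 2.1% and 3.71% of all tested genes. None of the 47 had a smaller log2 fold change than ATAD3B, and 3 had a smaller one than ATAD3A. Of all tested genes, 0.506% and 6.54% did. As ATAD3B was chosen for its low level, nothing is read from its place here. SAMD11 fell from 68.6 and 63.2 CPM in wild type to 40.9 and 38.2 CPM in mutant (edgeR adjusted p = 0.0368). AGRN fell from 75.5 and 50.6 to 29.2 and 31.0 CPM (edgeR adjusted p = 0.0499), with its highest value in wild-type replicate 1. Agrin, the product of AGRN, is a heparan sulfate proteoglycan of basement membranes and the neuromuscular junction.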
